A study of Rattus norvegicus with 6 samples.

Results

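Von Willebrand factor, Pecam1 and 8 other genes that mark blood vessel endothelium were followed in both cell fractions prepared from digested inner medulla of the rat kidney. The 10 genes were chosen by name (Vwf, Pecam1, Cdh5, Plvap, Emcn, Esam, Egfl7, Robo4, Mmrn2 and Ptprb), and every probe set whose only gene symbol in the platform annotation was among them was taken. This gave 10 probe sets of the 31099 on the array, for 8 of the 10 genes. Ptprb and Egfl7 had 2 probe sets each, and Cdh5 and Robo4 are not analysed here, since no probe set carried their symbol alone.

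Both fractions came from male Sprague-Dawley rats that were given 1 mg of furosemide, a loop diuretic, into the peritoneum 30 min before death. The tissue was dissociated with collagenase B and hyaluronidase at 37 °C for 75 min, so all 6 arrays share the drug and the digestion, and no untreated or undigested sample was analysed here. The IMCD fraction was the pellet of low-speed centrifugation, enriched in inner medullary collecting duct cells, and the nonIMCD fraction was spun down from what remained above it. Each fraction was measured on 3 Rat 230 2.0 arrays, from 7 rats and 3 isolations in all. The labels give an age of 10 weeks for 5 arrays and of 6 weeks for IMCD replicate 1. Each array held pooled cell types and a rat is not tied to an array by the labels, so p-values measure the spread between these preparations. The study speaks of pairs of fractions, without saying which arrays form a pair.

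Endothelial cells line every vessel. Their identity rests on junctional adhesion molecules such as VE-cadherin, Pecam1 and Esam, on receptors and phosphatases that control junctions and sprouting, and on stored or secreted products such as von Willebrand factor. In the inner medulla the vessels are the vasa recta. The descending vasa recta have a continuous endothelium that carries the urea transporter Slc14a1 and the water channel Aqp1, and the ascending vasa recta have a fenestrated endothelium whose openings are bridged by Plvap diaphragms.

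The fractions stood apart on the whole array. Across probe sets, the correlation of log2 values was 0.956 to 0.966 within a fraction and 0.901 to 0.910 between fractions. Of 31042 probe sets tested, 4163 (13.4%) were lower and 2663 (8.58%) higher in IMCD at an adjusted p under 0.05 in limma's test. Lower calls were 61.0% of the calls with the deposited scaling, 33.0% after median centring of the arrays and 47.9% after quantile normalization. Over all probe sets the median difference was -0.10 on the log2 scale, and median centring and quantile normalization raised it by 0.29 and 0.15. The lower count was 2647 without nonIMCD replicate 1, and the higher count was 1537, 1717, 1725 and 1666 without IMCD replicates 1, 2 and 3 and nonIMCD replicate 1. Collecting duct principal cell markers were set beside the label of the IMCD fraction. The list was chosen with earlier results of these data known, so it is no independent check. In IMCD 9 of 10 were higher and 0 were lower, against 10.0% of all 14217 genes called higher. Aqp2 did not pass (0.29, adjusted p = 0.261) unless arrays were median-centred (0.58, 0.0403) or quantile-normalized (0.45, 0.0406).

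Promoter windows were available for 5 of the 10 genes, and those of the measured members are shown because these genes differed together between the fractions. Each is the RefSeq sequence of the GRCr8 assembly from 250 bases before to 50 after an annotated start of transcription, read along the gene's strand. Capitals mark AGGAAG or its reverse complement CTTCCT, the core recognised by ETS factors such as Erg and Fli1, which endothelial cells express.
Emcn (chr2:228564289-228564588, plus strand): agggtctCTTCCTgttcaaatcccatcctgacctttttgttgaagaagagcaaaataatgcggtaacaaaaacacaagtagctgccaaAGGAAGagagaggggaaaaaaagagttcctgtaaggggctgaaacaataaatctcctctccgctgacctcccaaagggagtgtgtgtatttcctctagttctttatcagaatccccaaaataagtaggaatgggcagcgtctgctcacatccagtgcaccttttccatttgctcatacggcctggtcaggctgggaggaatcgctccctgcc
Egfl7 first window (chr3:29805381-29805680, plus strand): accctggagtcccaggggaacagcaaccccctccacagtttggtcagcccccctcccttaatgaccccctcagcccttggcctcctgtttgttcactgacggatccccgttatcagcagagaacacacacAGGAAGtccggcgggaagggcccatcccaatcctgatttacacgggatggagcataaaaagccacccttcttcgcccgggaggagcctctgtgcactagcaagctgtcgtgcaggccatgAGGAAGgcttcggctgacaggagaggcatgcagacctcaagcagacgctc
Egfl7 second window (chr3:29808051-29808350, plus strand): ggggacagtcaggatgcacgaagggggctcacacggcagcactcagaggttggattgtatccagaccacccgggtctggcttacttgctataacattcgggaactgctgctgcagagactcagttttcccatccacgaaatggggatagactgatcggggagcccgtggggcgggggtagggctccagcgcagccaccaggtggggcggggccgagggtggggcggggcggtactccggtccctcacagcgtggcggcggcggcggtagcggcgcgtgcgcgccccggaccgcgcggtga
Mmrn2 (chr16:9711955-9712254, plus strand): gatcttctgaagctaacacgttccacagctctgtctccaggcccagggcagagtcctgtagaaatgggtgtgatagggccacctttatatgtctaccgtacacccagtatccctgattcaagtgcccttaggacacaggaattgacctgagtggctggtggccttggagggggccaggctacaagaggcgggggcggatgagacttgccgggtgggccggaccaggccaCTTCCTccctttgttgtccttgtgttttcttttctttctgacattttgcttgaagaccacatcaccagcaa
Plvap (chr16:18231230-18231529, minus strand): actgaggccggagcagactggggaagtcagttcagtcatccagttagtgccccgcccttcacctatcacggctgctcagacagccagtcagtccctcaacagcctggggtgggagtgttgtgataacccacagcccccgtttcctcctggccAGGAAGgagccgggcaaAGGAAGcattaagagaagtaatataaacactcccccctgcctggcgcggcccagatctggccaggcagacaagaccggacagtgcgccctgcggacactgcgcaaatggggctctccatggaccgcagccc

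The hexamer AGGAAG, on either strand, was found in 5 of the 6 windows of Emcn, Egfl7, Mmrn2, Plvap and Robo4, the second window of Egfl7 being without it. It is a short motif that 34.5% of all 33469 windows of this length hold. The 4 other motifs were searched on both strands too, and of these CCGGAAG shares the letters GGAAG with the hexamer, though a match to either cannot be a match to the other. AACAAT, bound by SOX factors, was found in the Emcn window and in 11.7% of all windows. TATAAA was found in the windows of Mmrn2 and Plvap and in 14.2% of all windows. The ETS form CCGGAAG (8.75% of all windows) and the GATA motif AGATAA (11.6%) were found in 0 of the 6.

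All 8 measured endothelial identity genes were lower in the IMCD fraction, with 15.7% of all genes called lower as background. All 10 probe sets were lower too, against 13.4% of all probe sets. For each of the 8 genes, every IMCD array lay under every nonIMCD array, which held for 28.7% of all genes and 24.9% of all probe sets. The median difference was -2.38 on the log2 scale, IMCD minus nonIMCD, beside -0.09 for all genes. In a bulk fraction, fewer endothelial cells and less of a transcript per endothelial cell cannot be told apart.

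Other measurements moved with this difference. The leukocyte markers, a list of 12 genes that includes Ptprc, summed to an intensity of 2302 to 2738 per IMCD array and of 88249 to 96369 per nonIMCD array. The summed intensity of the 8 endothelial genes was 12660 to 16716 and 61318 to 68639. The 3' to 5' signal of Actb, Gapdh and hexokinase, a measure of RNA integrity, averaged 0.68 ± 0.03 in IMCD and 1.33 ± 0.14 in nonIMCD (log2 ratio, SD, n = 3). The part of either in the results that follow was not tested.

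**Figure D1:**
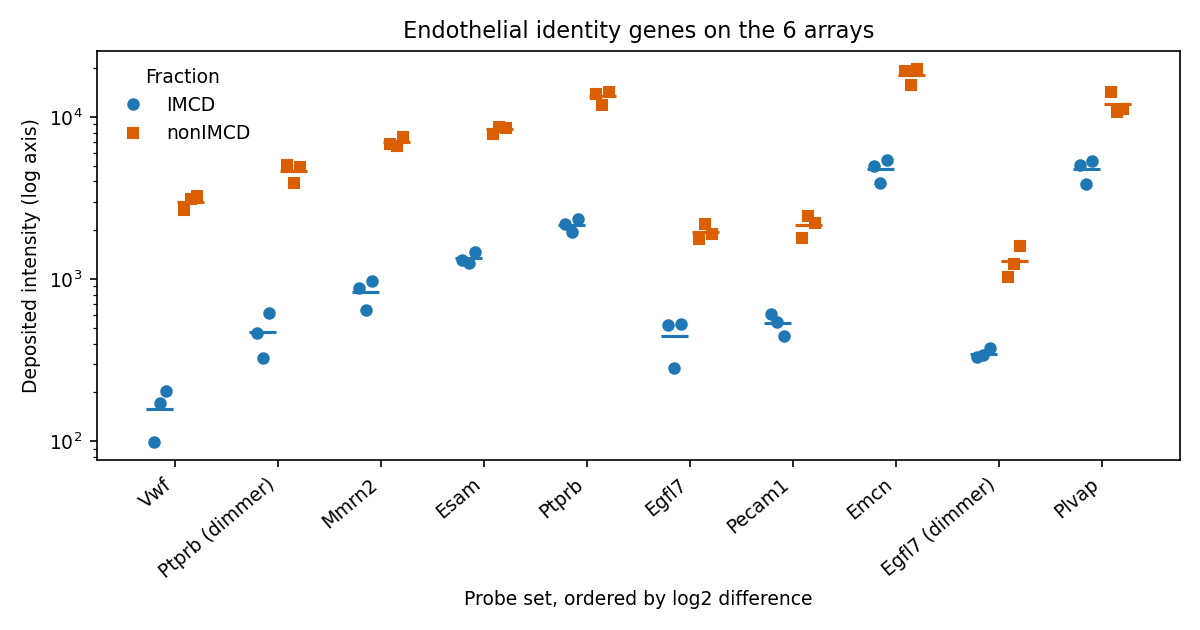
Deposited intensity (log axis) of the 10 probe sets of the 8 measured endothelial identity genes on the 3 IMCD arrays (circles) and the 3 nonIMCD arrays (squares), with a bar at each mean, ordered by log2 difference. In every probe set the IMCD arrays lie under the nonIMCD arrays, and the gap narrows from Vwf at the left to Plvap at the right.

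Vwf encodes the multimeric glycoprotein that endothelial cells store in Weibel-Palade bodies and that tethers platelets and carries coagulation factor VIII. Its probe set (1389234_at) read 99.5, 171.5 and 203.2 on IMCD replicates 1, 2 and 3, and 2658, 3134 and 3231 on nonIMCD replicates 1, 2 and 3. The highest IMCD array was 7.65% of the lowest nonIMCD array. The nonIMCD mean of 3008 ± 307 was 19.0 times the IMCD mean of 158.1 ± 53.2 (SD, n = 3). On the log2 scale the difference was -4.16 ± 0.26 (SE, adjusted p = 0.000526), a size reached or exceeded in the same direction by 0.739% of all genes. IMCD replicate 1, from the younger age, held the lowest Vwf value. Without it the difference was -3.89 (adjusted p = 0.00216).

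Mmrn2 encodes multimerin 2, an extracellular matrix protein that endothelial cells deposit and that binds the surface receptors Clec14a and Cd93. Its probe set (1375966_at) read 885.9, 649.0 and 970.0 in IMCD and 6841, 6605 and 7550 in nonIMCD. The lowest array of each fraction was replicate 2. The difference was -3.06 ± 0.19 (SE, adjusted p = 0.000467), with an IMCD mean that was 11.9% of the nonIMCD mean.

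The junctional molecules measured were Esam and Pecam1. Esam is an immunoglobulin-family adhesion protein of endothelial tight junctions that platelets also carry. Its probe set (1388703_at) read 1306, 1254 and 1464 in IMCD and 7812, 8702 and 8604 in nonIMCD. The fractions did not overlap, and the SD over 3 arrays was 109.4 in IMCD and 488 in nonIMCD. The difference was -2.63 ± 0.13 (SE, adjusted p = 0.000299), the smallest error among the 10 probe sets.

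Pecam1, which joins neighbouring endothelial cells and is found on leukocytes and platelets as well, read 610.1, 543.2 and 445.1 in IMCD and 1802, 2456 and 2224 in nonIMCD (1371545_at). The fractions did not overlap, and the order of the IMCD arrays was unlike that of most other members, with replicate 3 the lowest. The difference was -1.99 ± 0.19 (SE, adjusted p = 0.00157). Pecam1 in IMCD was 24.7% of its nonIMCD mean, while the pan-leukocyte gene Ptprc, which encodes CD45, had 99.8 in IMCD and 4861 in nonIMCD and differed by -5.45 (adjusted p = 0.000366).

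Ptprb encodes the vascular endothelial receptor tyrosine phosphatase, which acts on the angiopoietin receptor Tek and on VE-cadherin. The brighter of its probe sets (1389332_at) read 2186, 1956 and 2349 in IMCD and 13841, 11920 and 14339 in nonIMCD, a difference of -2.62 ± 0.14 (SE, adjusted p = 0.000377). The dimmer probe set (1391669_at) read 467.0, 324.2 and 614.9 in IMCD and 5040, 3905 and 4909 in nonIMCD, a difference of -3.29 ± 0.26 (adjusted p = 0.000902). Both probe sets gave the same direction and put replicate 2 lowest in each fraction. IMCD means were 16.2% and 10.1% of the nonIMCD means.

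Egfl7 encodes a secreted protein with epidermal growth factor domains that endothelial cells release and that acts in vascular tube formation. The brighter probe set (1370402_at) read 523.8, 283.1 and 525.9 in IMCD and 1774, 2182 and 1896 in nonIMCD, a difference of -2.14 ± 0.27 (SE, adjusted p = 0.00394). IMCD replicate 2 stood at 63.7% of the IMCD mean. The dimmer probe set (1393427_s_at), whose suffix marks probes that can match more than 1 transcript, read 329.8, 338.4 and 373.5 in IMCD and 1036, 1232 and 1594 in nonIMCD, a difference of -1.82 ± 0.19 (adjusted p = 0.00208).

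Emcn and Plvap mark the vessel surface. Emcn encodes endomucin, a sialomucin on the surface of capillary and venous endothelium. It read 4999, 3926 and 5448 in IMCD and 19162, 15644 and 19649 in nonIMCD (1372587_at), a difference of -1.92 ± 0.18 (SE, adjusted p = 0.00158). Its IMCD mean was 26.4% of the nonIMCD mean.

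Plvap, the protein of fenestral and caveolar diaphragms, read 5049, 3877 and 5311 in IMCD and 14182, 10675 and 11147 in nonIMCD (1368284_at). The arrays did not overlap, the highest IMCD array being 49.8% of the lowest nonIMCD array. The difference was -1.34 ± 0.19 (SE, adjusted p = 0.00602), the smallest of the members, and 8.48% of all genes were lower by as much or more. Its IMCD mean was 39.5% of the nonIMCD mean.

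**Figure D2:**
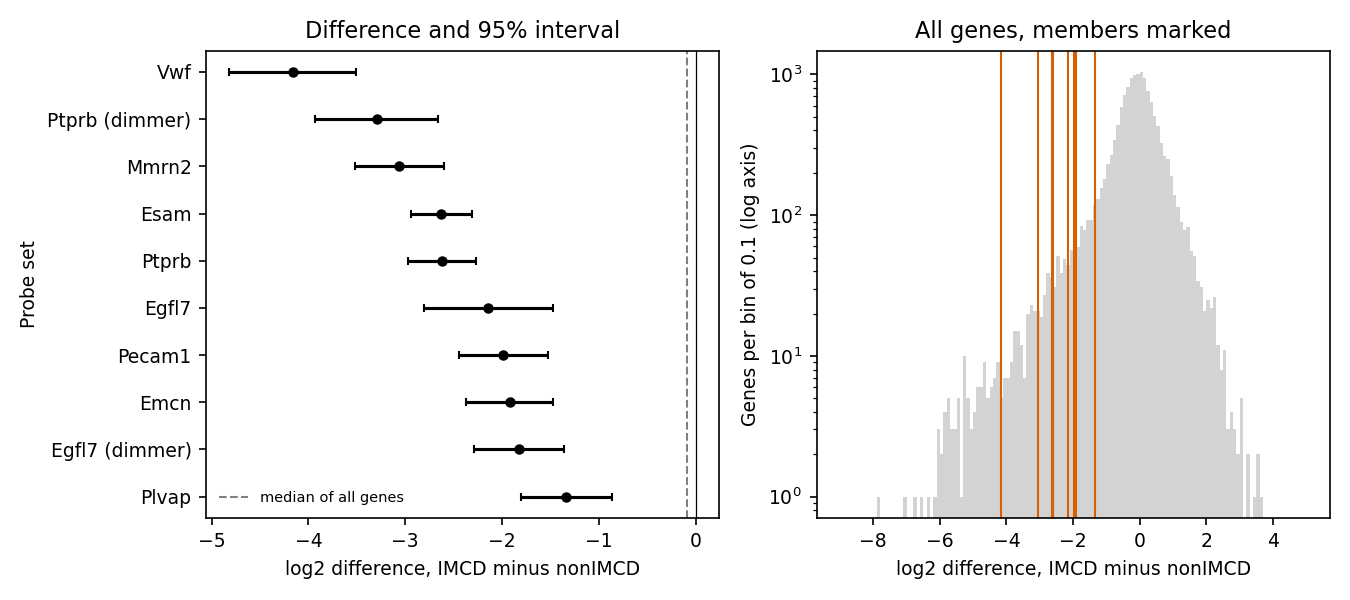
Left, log2 difference (IMCD minus nonIMCD) of the 10 probe sets with 95% intervals from limma and a dashed line at the median of all genes; right, the number of genes per bin of difference (log axis) with the 8 members as vertical lines. The members run from -4.16 (Vwf) to -1.34 (Plvap), all in the lower tail of the distribution.

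The size of the difference varied among the members. By their brightest probe sets, the differences ran from the largest to the smallest in the order Vwf, Mmrn2, Esam, Ptprb, Egfl7, Pecam1, Emcn and Plvap, and spanned 2.83 on the log2 scale. Neighbours in this order were compared by the gap between their log2 values on each array. The gaps of the IMCD arrays overlapped those of the nonIMCD arrays for Esam with Ptprb, Ptprb with Egfl7, Egfl7 with Pecam1 and Pecam1 with Emcn, so these neighbours did not differ beyond their spread. The gaps did not overlap for Vwf with Mmrn2 (1.10 apart), Mmrn2 with Esam (0.43) and Emcn with Plvap (0.59). Over all 28 pairs of members, they did not overlap in 20 pairs. The same share was not computed for pairs of other genes, so this count has no background. The gap between Vwf and Plvap, the pair at the ends, had an SD of 0.48 between arrays of a fraction.

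The order in the middle depended on the probe set and the scaling. The dimmer Ptprb probe set, at -3.29, lay beyond Mmrn2, and the mean of both Ptprb probe sets, at -2.96, lay beyond Esam. The probe sets of Ptprb were 0.68 apart and those of Egfl7 0.32, so the Ptprb probe sets differed by more than Mmrn2 from Esam or Emcn from Plvap. After quantile normalization Pecam1 (-1.85) and Egfl7 (-1.99) differed less than Emcn (-2.06). Vwf was the largest and Plvap the smallest difference under each of the 14 alternatives.

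Array by array, the members did not all rank alike within a fraction. IMCD replicate 2 was the lowest IMCD array in 7 of the 10 probe sets and IMCD replicate 3 the highest in 9. In nonIMCD, replicates 1 and 2 were each the lowest in 5. For Mmrn2, Ptprb, Emcn and Plvap the lowest array was number 2 in both fractions. Vwf ranged from 62.9% to 128.6% of its mean over the IMCD arrays, the widest range of the 8 genes there, and Esam from 93.5% to 109.1%.

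**Figure D3:**
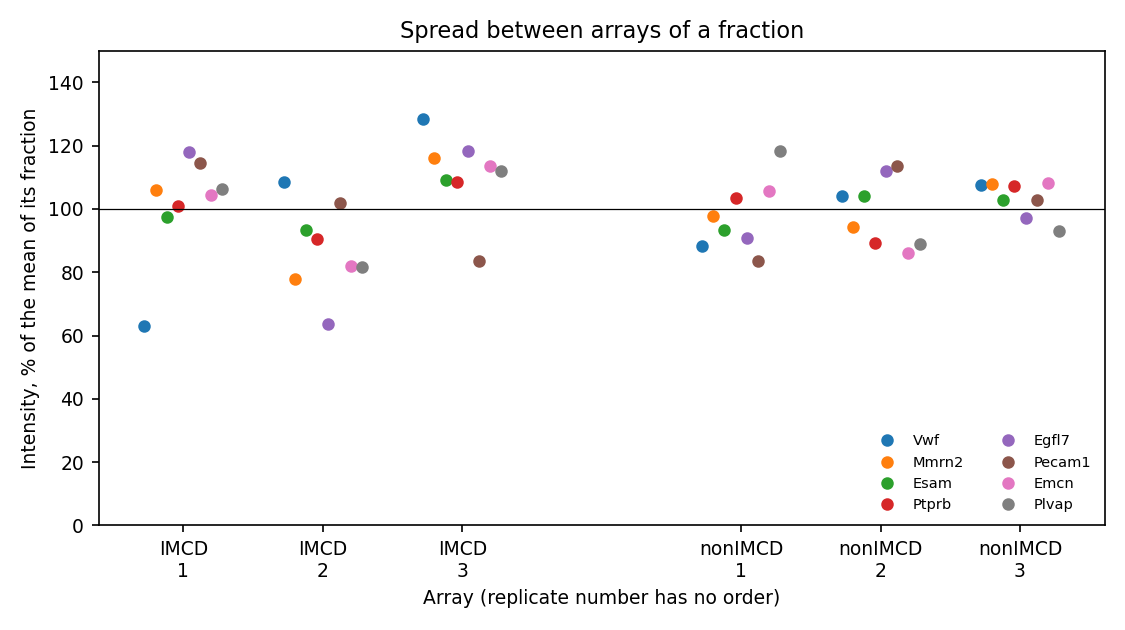
Intensity of each of the 8 measured genes (brightest probe set) on each array, as a percentage of that gene's mean over the 3 arrays of the fraction. Of the 8 points of IMCD replicate 2, 6 lie under 100%, Vwf on IMCD replicate 1 is at 62.9%, and the nonIMCD arrays run from 83.4% to 118.2%.

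All 8 genes were called lower under each of 14 alternatives, with adjusted p at most 0.0297. With each array centred on its median, the median over the members was -2.09 and the smallest difference -1.05, and after quantile normalization they were -2.37 and -1.48.

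Genes whose pattern over the 6 arrays was nearest to the mean profile of the members were listed by the root mean square distance between log2 values, each gene centred on its own mean. The 8 nearest were C13h1orf115, Vegfc, Srgn, Tspan8, Ppp1r18, Papss2, Gmfg and Fgd5, at distances of 0.07 to 0.11. Their differences, which this choice fixes, were -2.64 to -2.31. Vegfc encodes a growth factor of lymphatic and blood vessel endothelium, Fgd5 an exchange factor for Cdc42 known from endothelium, and Srgn the granule proteoglycan serglycin of blood and endothelial cells. The others of the 8 are not described here, so the list as a whole is not called endothelial. Esam (0.10) and Ptprb (0.10) lay as near to the profile, and Vwf (0.89) lay farthest of the members. Each member is part of that mean profile, so these distances largely restate its place in the order of differences.

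Among 31 other endothelial genes measured, 26 were lower in IMCD, 0 were higher and 5 did not pass, with a median of -2.00. For this list and those that follow, the background was 15.7% of all genes called lower and 10.0% called higher. The largest differences were those of Cd93, a lectin-like receptor (-3.70 ± 0.14, SE, adjusted p = 0.000204), the claudin Cldn5 (-3.54 ± 0.20, adjusted p = 0.000399), the ETS factor Fli1 (-3.34 ± 0.25, adjusted p = 0.000824) and the cell-surface protein Ecscr (-3.11 ± 0.15, adjusted p = 0.000268). Fli1 is also made by leukocytes and megakaryocytes. Its dimmest probe set gave 0.08 (adjusted p = 0.949), and its other dimmer probe sets gave -2.85 (0.000807) and -2.93 (0.000399). The dimmer Cd93 probe set gave -1.05 (adjusted p = 0.0257). Erg, an ETS factor of endothelium, differed by -2.00 (adjusted p = 0.000611). Of the 26 lower genes, Kdr, Calcrl, Nostrin and Myct1 lost their call under 1, 6, 7 and 10 alternatives, chosen for mention after their values were seen. The dimmer Calcrl probe set was lower (-2.35, adjusted p = 0.00201). Those of Myct1 (-0.77, 0.494) and Kdr (-0.31, 0.814) did not pass.

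The 5 that did not pass were Flt4 (-1.28, adjusted p = 0.0833), Gpr4 (-1.16, 0.279), She (-0.80, 0.143), Ramp2 (-0.46, 0.0942) and Sox7 (0.54, 0.105). Flt4 passed as lower without IMCD replicate 3 (-1.74, adjusted p = 0.011), with a pseudocount of 64 (-0.97, 0.0481) and with a trend on intensity (-1.28, 0.0432). She passed as lower without dim probe sets (adjusted p = 0.0489), with the trend (0.0474) and as the mean of its probe sets (0.0248), and Ramp2 without dim probe sets (0.027) and with the trend (0.0148). Sox7 was the only measured gene of that list with a higher mean in IMCD, and it passed there with median centring (0.83, adjusted p = 0.0297), with a trend on intensity (0.54, 0.0204) and without dim probe sets (0.54, 0.0314).

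The lists for each kind of vasa recta differed in their medians, a description with no test. All 6 measured genes of the descending and arterial side were lower, with a median of -2.92. They were led by Slc14a1 (-4.01 ± 0.23, SE, adjusted p = 0.000399), Aqp1 (-3.48 ± 0.24, adjusted p = 0.000584), the transcription factor Sox17 (-2.93 ± 0.14, adjusted p = 0.00029) and the chemokine Cxcl12 (-2.90 ± 0.18, adjusted p = 0.00051). Aqp1 is also a channel of descending thin limbs, and all 4 measured thin limb markers were lower, Slc4a11 losing its call with median centring (adjusted p = 0.062) and without any IMCD array or nonIMCD replicate 2 (0.0517 to 0.0665). The dimmest Sox17 probe set did not pass (-0.67, adjusted p = 0.415), and its other dimmer probe set gave -2.28 (0.00383). The dimmer probe set of Gja5, another of the 6 genes, did not pass (0.01, adjusted p = 0.979).

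Of 8 genes of the ascending, venous and fenestrated side 5 were lower, 0 higher and 3 did not pass, with a median of -1.34. The fatty acid receptor Cd36 (-4.40 ± 0.53, SE, adjusted p = 0.00336), which macrophages and platelets carry too, led them, before Tek (-1.88 ± 0.12, adjusted p = 0.00054), the venous transcription factor Nr2f2 (-1.81 ± 0.20, adjusted p = 0.00272) and the co-receptor Nrp2 (-1.71 ± 0.22, adjusted p = 0.00395). A dimmer Nrp2 probe set gave 0.86 (adjusted p = 0.358), and the mean of both did not pass (-0.43, adjusted p = 0.409). The dimmest Nr2f2 probe set did not pass either (-0.86, adjusted p = 0.195), and its other dimmer probe set gave -1.49 (0.00493). The fifth lower gene, Ephb4, lost its call under 8 alternatives. Gpr182 (-0.91, adjusted p = 0.165), Igfbp7 (-0.22, 0.402) and Gpihbp1 (1.10, 0.136) missed the threshold. Gpr182 passed as lower without nonIMCD replicate 3 (-1.32, adjusted p = 0.0293) and Gpihbp1 as higher without nonIMCD replicate 2 (1.57, 0.0238).

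Partners of the members gave mixed calls. Of 16 measured binding partners and substrates, 10 did not pass, 5 had lower calls and 1 a higher call. Of all genes 15.7% were lower and 10.0% higher. The lower ones were the Mmrn2 receptors Cd93 and Clec14a (-2.22 ± 0.28, SE, adjusted p = 0.00414), the Ptprb substrate Tek, the growth factor receptor Kdr (-1.59 ± 0.12, adjusted p = 0.000774) and the Vwf cargo F8 (-1.77 ± 0.26, adjusted p = 0.00676). The catenins that bind VE-cadherin and other cadherins did not pass: Ctnna1 had 0.30 (adjusted p = 0.183), Ctnnb1 -0.35 (0.147) and Jup -0.04 (0.868). As the mean of its probe sets Kdr lost its call (-0.95, adjusted p = 0.139), its dimmer probe set giving -0.31 (0.814), and 3 of the 4 dimmer F8 probe sets did not pass. With a trend on intensity 8 partners were lower, and with median centring 3 were higher. Ctnna1 passed as higher with median centring (0.59, adjusted p = 0.0248) and Ctnnb1 as lower with an intensity trend (-0.35, 0.0397).

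Cav1, the coat protein of the caveolae in which Plvap forms diaphragms, was higher in IMCD, with 12457 and 7304 as mean intensities and a difference of 0.78 ± 0.17 (SE, adjusted p = 0.0248). Dimmer Cav1 probe sets gave 1.84 (adjusted p = 0.0154) and 1.21 (adjusted p = 0.01). The call of the brightest was lost after quantile normalization (0.62, adjusted p = 0.0506), with the replicate number as a block (0.78, 0.0749) and without IMCD replicates 1, 2 or 3 or nonIMCD replicates 1 or 2 (0.67 to 0.83, 0.0582 to 0.0799).

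Of 15 measured genes of Weibel-Palade bodies and endothelial hemostasis 7 were lower, 2 were higher and 6 did not pass, with a median of -0.86. The shares over all genes were 15.7% lower and 10.0% higher. Angpt2, stored with Vwf (-2.68 ± 0.40, SE, adjusted p = 0.00738), the nucleotidase Entpd1 (-2.68 ± 0.45, adjusted p = 0.0109) and thrombomodulin, Thbd (-2.42 ± 0.21, adjusted p = 0.00126), were lower. E-selectin, Sele, was lower as well (-2.15 ± 0.52, adjusted p = 0.0339), a call lost without IMCD replicate 1 or any 1 nonIMCD array (adjusted p = 0.0748 to 0.101), with the replicate number as a block (0.0598), with a pseudocount of 1 (0.073) and after quantile normalization (0.0575). Without dim probe sets 4 of 11 were lower. P-selectin, Selp, differed by -1.44 ± 0.24 (adjusted p = 0.0102) and its dimmer probe set by -0.18 (adjusted p = 0.833).

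The higher members were the coagulation initiator F3, tissue factor (1.87 ± 0.31, SE, adjusted p = 0.0107), and the vesicle GTPase Rab27a (1.05 ± 0.19, adjusted p = 0.0139), which epithelial cells make too. Without IMCD replicate 1 Rab27a lost its call (1.00, adjusted p = 0.0533), which left 1 higher member. Ptgis (-0.86, adjusted p = 0.443), Procr (-0.47, 0.315), Plat (-0.38, 0.208), Tfpi (-0.08, 0.786), Rab3d (0.10, 0.682) and Cd63 (0.12, 0.502) did not pass. Cd63 passed as higher with median centring (0.41, adjusted p = 0.0436) and Tfpi as lower as the mean of its probe sets (-0.61, 0.0298).

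Family relatives of the members had calls in both directions. Of 18 measured 7 were lower, 2 higher and 9 did not pass, with a median of -0.57, beside 15.7% of all genes lower and 10.0% higher. Without dim probe sets 4 of 9 were lower, and with median centring 4 were higher. Epithelial cadherin, Cdh1 (1.12 ± 0.11, SE, adjusted p = 0.00205), was higher, as was F11r, the junctional molecule JAM-A that epithelia share with endothelium (1.36 ± 0.15, adjusted p = 0.00235). The lower relatives were led by neural cadherin, Cdh2 (-3.15 ± 0.59, adjusted p = 0.0153), the phosphatase Ptpro (-2.87 ± 0.27, adjusted p = 0.0016), Cdh13 (-1.78 ± 0.23, adjusted p = 0.00401) and Jam2 (-1.78 ± 0.20, adjusted p = 0.0025). Cdh2 lost its call without nonIMCD replicate 2 (-3.09, adjusted p = 0.0555). Its dimmest probe set gave -0.33 (0.796) and its other dimmer probe set -2.24 (0.00666). The dimmer probe sets of Cdh13 gave -3.08 and -4.66. Of Jam2, 1 dimmer probe set gave 0.75 (adjusted p = 0.0658), and the others were lower (-1.29, -1.29 and -1.58). Cdh11, another of the lower relatives, lost its call under 10 of 13 alternatives. As the mean of its probe sets Cdh11 gave -0.04 (adjusted p = 0.9265), its dimmer probe sets giving 0.81 and 0.05. Cdh16, Ptprj and Egfl8 (0.32, 0.23 and -0.44, adjusted p = 0.179, 0.359 and 0.212) did not pass. Cdh16 passed as higher with median centring (0.61, adjusted p = 0.0254) and after quantile normalization (0.45, 0.0391).

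**Figure D4:**
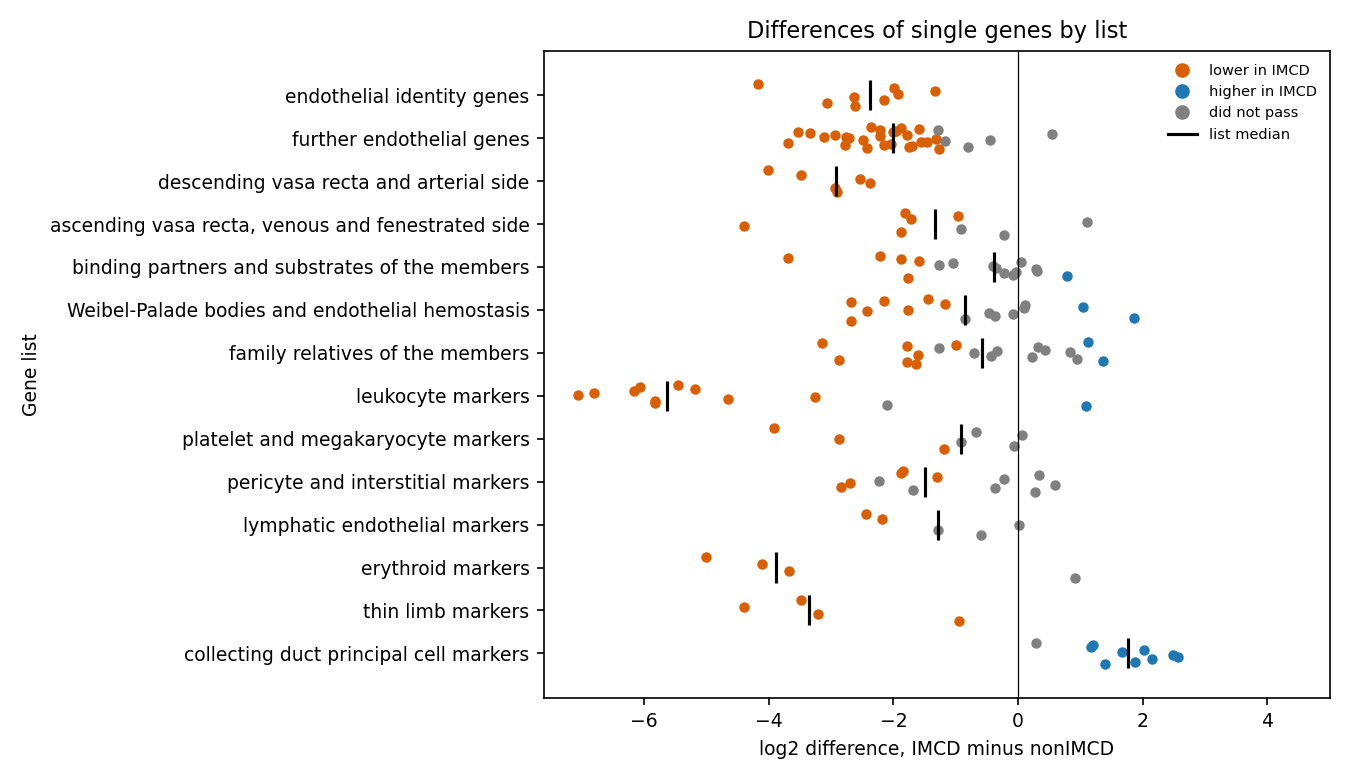
Log2 difference (IMCD minus nonIMCD) of each measured gene, by list, coloured by the call at an adjusted p under 0.05, with a bar at each list's median. The endothelial identity genes (median -2.38) and other endothelial genes (-2.00) lie between the leukocyte markers (-5.64) and the pericyte and interstitial markers (-1.49), and the collecting duct markers lie on the other side of 0 (1.77).

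Vwf, Pecam1 and Esam are also found in platelets, and Pecam1 in leukocytes. Of 7 measured platelet and megakaryocyte markers 3 were lower, 0 higher and 4 did not pass, and they summed to 1639 to 1736 per IMCD array and 5266 to 6428 per nonIMCD array. The platelet chemokine Pf4 was lower (-3.91 ± 0.18, SE, adjusted p = 0.000264), as were the integrin Itgb3 (-2.87 ± 0.31, adjusted p = 0.00239) and Treml1 (-1.19 ± 0.29, adjusted p = 0.037). The call of Treml1 was lost without any 1 array other than IMCD replicate 3 (adjusted p = 0.0589 to 0.11), with the replicate block (0.0786), with median centring (0.0739) and after quantile normalization (0.0844). The defining integrin Itga2b (0.06, adjusted p = 0.847) and Ppbp, Gp9 and Gp5 (-0.67, -0.91 and -0.06, adjusted p = 0.102, 0.245 and 0.964) did not pass. No value of these lists was at 0, but the lowest value of the platelet and megakaryocyte markers was 10.8. Without dim probe sets 2 of 3 of these markers were lower. The part of platelets and leukocytes in the results for Vwf, Pecam1 and Esam was not tested.

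The leukocyte markers, with a median of -5.64, had 10 of 12 genes lower, 1 higher and 1 that did not pass. C1qb, Aif1, Cybb and Cd53 differed by -7.06, -6.79, -6.15 and -6.07, Cd79b by 1.09 (adjusted p = 0.00421) and Cd3e by -2.09 (adjusted p = 0.149). Cd3e passed as lower without nonIMCD replicate 3 (-2.91, adjusted p = 0.0489), with the replicate block (-2.09, 0.014) and as the mean of its probe sets (-3.31, 0.016), its dimmer probe set giving -4.53 (0.00359). The dimmer Aif1 probe set went the other way and did not pass (0.51, adjusted p = 0.558). All 3 erythroid markers other than Slc4a1 were lower, with a summed intensity of the 4 genes of 5573 to 10003 and 31235 to 90833. Ahsp lost its call without IMCD replicate 1, IMCD replicate 2 or nonIMCD replicate 2 (adjusted p = 0.0588 to 0.0645), and Slc4a1 passed as higher with a trend on intensity (0.91, 0.0438).

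Of 12 pericyte and interstitial markers 5 were lower, 0 higher and 7 did not pass, with summed intensities of 2646 to 3107 in IMCD and 6128 to 6407 in nonIMCD. Col3a1 (-2.83), the potassium channel subunit Abcc9 (-2.69), Rgs5 (-1.87) and the receptor Pdgfrb (-1.84, adjusted p = 0.0322) were lower, and Acta2 (0.33, adjusted p = 0.226), Cspg4 (-0.22, 0.466) and Dcn (-1.69, 0.0553) did not pass. Dimmer probe sets of Abcc9 (0.56, adjusted p = 0.562) and Pdgfrb (0.14, 0.931) did not pass, and others of Abcc9 (-2.42, 0.0471) and Pdgfrb (-2.33, 0.00141) were lower. The lower count was 3 of 12 after quantile normalization and without IMCD replicate 1, IMCD replicate 2 or nonIMCD replicate 2. It was 7 of 12 with a pseudocount of 64, with an intensity trend and with a gene as the mean of its probe sets. Without IMCD replicate 3 it was 6. Without dim probe sets 3 of 5 were lower. Of the fits without 1 array Pdgfrb kept its call only in that without IMCD replicate 3. With the replicate block Pdgfrb (adjusted p = 0.0775) and Des (0.0987) lost their calls and Dcn passed (0.0492). Dcn passed as lower under 6 alternatives in all. Acta2 passed as higher with median centring (0.62, adjusted p = 0.0453).

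Of 5 lymphatic endothelial markers Lyve1 (-2.43 ± 0.23, SE, adjusted p = 0.0016) and Prox1 (-2.19 ± 0.25, adjusted p = 0.00302) were lower, the dimmer Prox1 probe set missing the threshold (-0.88, adjusted p = 0.0521), and Flt4, Reln (-0.60, adjusted p = 0.467) and Pdpn (0.01, 0.991) did not pass. Their summed intensity was 2039 to 3010 in IMCD and 9689 to 12634 in nonIMCD.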

How the data were processed

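Biotinylated cRNA from 6 preparations was hybridised to Affymetrix Rat 230 2.0 arrays, per the labels' protocols. The deposited values are linear intensities that the authors had scaled: with 2% of values trimmed at each end, the mean was 1000.3 to 1000.4 on every array. The sources used here do not name the software. The members and gene lists were chosen with earlier results of these data known.

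Intensities were analysed as log2(value + 16), which understates differences between dim signals, with no filter. The 57 control probe sets were left out. IMCD was set against nonIMCD on all 6 arrays by limma's moderated two-sided test (version 3.58.1, R 4.3.3) with no further term, after a check on simulated data. Benjamini-Hochberg adjustment covered 31042 probe sets, with a threshold of 0.05. Errors are SE from the fit for log2 differences and SD for intensities, and the number of arrays limits the precision. Symbols are those of the 2016 platform annotation, in which 20826 tested probe sets had 1 symbol, 436 several and 9780 none. RefSeq (GRCr8) held the gene identifiers of 20758 and changed 0 symbols. For 14217 genes the brightest probe set, by mean log2 value, stood for the gene. Pattern likeness was ranked among genes with a mean log2 value above 8.

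Of each list, the text names up to 4 genes with the largest difference past the threshold and those that missed it where these were 6 or fewer, otherwise the 3 with the highest mean level. The few other genes named were chosen after their values were seen. The 14 alternatives were pseudocounts of 1 and 64, median centring, quantile normalization, probe sets with a mean log2 above 8 only, an intensity trend, a replicate block, leaving out each of the 6 arrays, and a gene as the mean of its probe sets.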

Additional observations from a re-analysis of the deposited data

How the results depend on the processing

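The 8 endothelial identity genes and all their 10 probe sets were called lower in IMCD under every alternative run, and the span between Vwf and Plvap moved by less than the spread between arrays. Counts over the whole array moved more. With median centring 2652 probe sets were lower and 5389 higher. Leaving out 1 array gave 2647 to 3221 lower and 1537 to 2248 higher probe sets. Among the 138 other list genes, 15 were higher as deposited and 24 with median centring. The cause of these shifts was not tested.

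The replicate numbers of the titles were tried as a block. Deviations of same-numbered arrays from their fraction means correlated at r = 0.04, 0.04 and 0.06 over all 31042 probe sets, and at r = 0.14, 0.22 and 0.27 over those whose mean log2 value was above 8. In both, each array correlated best with its own number, a hint from the data and not from the design. With the replicate block 2993 probe sets were lower and 1831 higher, all 8 members kept their call, and of the 138 other list genes 72 were lower (75 without the block) and 14 higher.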
